A study of Mus musculus with 10 samples.

Results

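The 9 genes described here encode leukocyte integrin subunits and an adhesion ligand, namely Itgal, Itgb2, Itga4, Itgb7, Itgb1, Itgav, Itgb5, Itga6 and Icam1, out of 53715 genes in the count tables. They were picked by name, as adhesion genes of leukocytes and of microglia, but with earlier results of these data known. All 9 passed the filter on low counts in every fit. The libraries came from microglia of untreated C57BL/6 mice (C57BL/6 J in the study's methods) aged 3 months, which were isolated from the midbrain (Mdb) or the striatum (Str) with magnetic beads against CD11b after papain digestion and a Percoll step, and polyadenylated RNA was sequenced. The study asked whether microglia of these regions differ in healthy adult brain, in a pilot and in a second cohort. Each cohort gave 2 midbrain and 2 striatum libraries that could be used, 8 in all, and no group carried a transgene or received an agent. A further 2 libraries of the second cohort name different regions in their title and in their other label and were kept out of the comparisons. The beads bind the product of Itgam, an integrin subunit itself, which monocytes, neutrophils and natural killer cells also carry, so the preparation could hold those cells besides microglia. The study checked the purity of an aliquot by flow cytometry, and those values are not used here.

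Integrins are cell surface receptors made of an alpha and a beta subunit, which hold cells to the extracellular matrix and to other cells. Itgal pairs with Itgb2 to form LFA-1, which binds Icam1 on endothelium and on antigen-presenting cells. Itga4 pairs with Itgb1 or with Itgb7 and carries lymphocytes and monocytes across vessel walls, Itgav with Itgb5 binds vitronectin, and Itga6 with Itgb1 binds laminin of basement membranes. Itgb5 and Itga6 are known for high expression in resting microglia, whereas Itgal, Itga4 and Itgb7 are better known from blood leukocytes.

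On the GRCm38 build, Itgal lies at chr7:127296260-127335138, Itgb2 at chr10:77530252-77565708, Itga4 at chr2:79255426-79333123, Itgb7 at chr15:102215995-102231944 on the minus strand and Itgb1 at chr8:128685654-128733200. Itgav lies at chr2:83724397-83806916, Itgb5 at chr16:33829665-33949153, Itga6 at chr2:71745616-71858416 and Icam1 at chr9:21015985-21028817, and all but Itgb7 are on the plus strand. Exons of 3 of these genes share bases with a gene on the opposite strand, and reads over shared bases were assigned to neither gene because the counting ignored strand. Itga4 shares 1124 exonic bases with Cerkl, Itgav shares 634 with Gm13684 and Icam1 shares 511 with Gm47079. Those partners held few reads, at most 8 counts in any library for Cerkl, 1 for Gm13684 and 7 for Gm47079.

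Promoter windows of 300 bases, from 250 before to 50 after the start of transcription, were taken from RefSeq (GRCm38.p6), which held 6 of the 9 genes in the table used, with Itgal, Itgb2 and Itga6 not among them. The windows of Itga4 and Itgb7 are shown because these genes passed the threshold in a cohort below, and that of Icam1 because its level differed between cohorts. They were searched on both strands for GGAATTTCC, a motif bound by NF-kB, for GAGGAA, the core bound by PU.1, and for GGGCGG, the core bound by Sp1, and capitals mark the matches. The windows are Itga4 at chr2:79255176-79255475 on the plus strand, Itgb7 at chr15:102231886-102232185 on the minus strand and Icam1 at chr9:21015690-21015989 on the plus strand, each written 5′ to 3′.
Itga4: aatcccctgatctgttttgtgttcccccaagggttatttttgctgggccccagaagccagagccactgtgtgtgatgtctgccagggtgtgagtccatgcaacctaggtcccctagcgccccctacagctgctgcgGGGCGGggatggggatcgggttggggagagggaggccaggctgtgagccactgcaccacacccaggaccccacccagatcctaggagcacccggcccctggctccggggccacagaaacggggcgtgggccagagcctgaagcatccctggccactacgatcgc
Itgb7: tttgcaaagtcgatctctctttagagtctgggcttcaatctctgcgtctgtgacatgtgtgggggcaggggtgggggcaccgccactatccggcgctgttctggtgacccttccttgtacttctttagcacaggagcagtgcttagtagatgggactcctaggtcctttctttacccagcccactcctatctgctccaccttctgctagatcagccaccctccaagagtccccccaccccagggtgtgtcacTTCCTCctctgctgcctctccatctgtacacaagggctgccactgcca
Icam1: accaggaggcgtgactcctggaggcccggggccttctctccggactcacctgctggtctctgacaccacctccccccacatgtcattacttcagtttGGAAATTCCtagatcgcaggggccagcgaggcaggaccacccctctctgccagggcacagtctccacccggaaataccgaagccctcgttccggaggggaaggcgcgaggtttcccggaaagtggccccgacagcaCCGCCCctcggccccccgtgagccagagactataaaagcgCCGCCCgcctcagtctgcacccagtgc

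The Icam1 window holds the NF-kB letters on the minus strand, 153 bases before the start, and the Sp1 letters at 2 places. The Itga4 window holds the Sp1 letters 114 bases before the start, and the Itgb7 window holds the PU.1 letters on the minus strand just after the start. Of 32851 promoter windows of this length, 0.317% held the NF-kB letters, 28.3% the PU.1 letters and 35.7% the Sp1 letters on either strand. The motifs were chosen with the Icam1 window known, and a match describes letters only.

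Library depth ranged from 575709 to 8463782 counts, a 14.7-fold range, with the shallowest being second striatum replicate 3. Levels below are counts per 1000000 counts of the library (CPM), scaled with the trimmed mean of M values (TMM) and are compared between libraries, not between genes, because 3′-biased counts were not divided by length. Within a cohort a gene was called at an unadjusted p under 0.01 in limma, and in the joint fit of both cohorts at a Benjamini-Hochberg adjusted p under 0.05. Folds are given as log2, midbrain over striatum, with the standard error (SE). The study describes both regions of the same mice, so regions share animals, but the labels do not state which libraries share a mouse. Libraries were therefore tested as separate samples, and the p-values measure the spread between them. All 12 microglial markers were detected, with a summed level of 13534 to 26069.6 CPM per library.

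The clearest regional differences were in Itgal, Itga4 and Itgb7, whose midbrain libraries lay above both striatum libraries of the same cohort in each cohort. Itgb7 passed the threshold in the pilot, and Itgal and Itga4 passed it in the second cohort. Called genes were therefore 1 of 9 in the pilot, where 2.64% of all tested genes were called (2.09% higher and 0.548% lower in the midbrain), and 2 of 9 in the second cohort, where 3.47% were called (2.88% higher and 0.593% lower). In the joint fit none of the 9 was called, against 1.06% of all genes (0.975% higher and 0.0854% lower). At an unadjusted p under 0.05 the joint limma fit had 3 of the genes higher and 1 lower, against 14.6% of all genes (9.35% higher and 5.21% lower). On the same libraries the edgeR quasi-likelihood test called 2 of the 9 (1.69% of all genes) and DESeq2 called 3 (3.87%). The median log2 fold change over the 9 genes was 0.20 in the joint fit, where that of all genes was 0.04. When the 2 libraries with conflicting labels were added by their titles, the second-cohort calls of Itgal and Itga4 were lost, with log2 fold changes of 0.70 and 1.00, and added by their other label Itga4 alone lost its call (1.53) and Itgb7 gained one (2.41). In bulk RNA, fewer cells of a type and less RNA per cell cannot be told apart.

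Itgal, the alpha chain of LFA-1, was at 43.1 and 30.6 CPM in the pilot midbrain and at 16.6 and 24.4 CPM in the pilot striatum. Its second-cohort levels were 93.8 and 49.96 CPM in the midbrain and 26.5 and 17.1 CPM in the striatum. The groups did not overlap in either cohort, and second midbrain replicate 1 was the highest library. The limma log2 fold change was 0.77 (SE 0.288, adjusted p = 0.417) in the pilot, short of the cohort threshold, and 1.499 (SE 0.452, adjusted p = 0.253) in the second cohort, past it. The joint estimate was 1.07 (SE 0.287, 95% confidence interval 0.45 to 1.70), about 2.10-fold, with an adjusted p of 0.105 in limma, 0.048 in edgeR and 0.0047 in DESeq2. The second-cohort call was lost without midbrain replicate 1 (log2 fold change 1.07), without striatum replicate 1 (1.90) and without striatum replicate 3 (1.36).

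Itga4, the alpha subunit shared by the Itgb1 and Itgb7 receptors, was at 20.6 and 16.2 CPM in the pilot midbrain and at 10.4 and 10.97 CPM in the pilot striatum. Its second-cohort levels were 83.9 and 32.1 CPM in the midbrain and 11.97 and 18.9 CPM in the striatum. Here too no striatum library reached its cohort's midbrain libraries, and second midbrain replicate 1 stood apart at the top. The log2 fold change was 0.72 (SE 0.288, adjusted p = 0.427) in the pilot, 1.92 (SE 0.591, adjusted p = 0.263) in the second cohort, where it was called, and 1.26 (SE 0.392, 95% confidence interval 0.41 to 2.12, adjusted p = 0.159) in the joint limma fit. The edgeR adjusted p was 0.0875 and that of DESeq2 0.0147. The second-cohort call was lost without striatum replicate 1 (log2 fold change 1.37) and without striatum replicate 3 (2.10).

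Itgb7, the beta chain that pairs with Itga4 in receptors for gut vessels, had the highest log2 fold change of the 9 genes in each fit. It was at 34.6 and 19.6 CPM in the pilot midbrain and at 8.32 and 13.1 CPM in the pilot striatum. In the second cohort it was at 70.0 and 22.2 CPM in the midbrain and at 8.34 and 3.43 CPM in the striatum. The last value rests on 2 counts, fewer than the 3 counts used as the floor, so the low end of the second-cohort striatum was not resolved at that depth. The log2 fold change was 1.22 (SE 0.373, adjusted p = 0.379) in the pilot, where it was called, 2.51 (SE 0.836, adjusted p = 0.309) in the second cohort and 1.63 (SE 0.479, 95% confidence interval 0.58 to 2.67, adjusted p = 0.137) in the joint limma fit. It was called by edgeR (adjusted p = 0.0468) and by DESeq2 (adjusted p = 0.00097). Without pilot midbrain replicate 1 the pilot call was lost (log2 fold change 0.83).

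**Figure D1:**
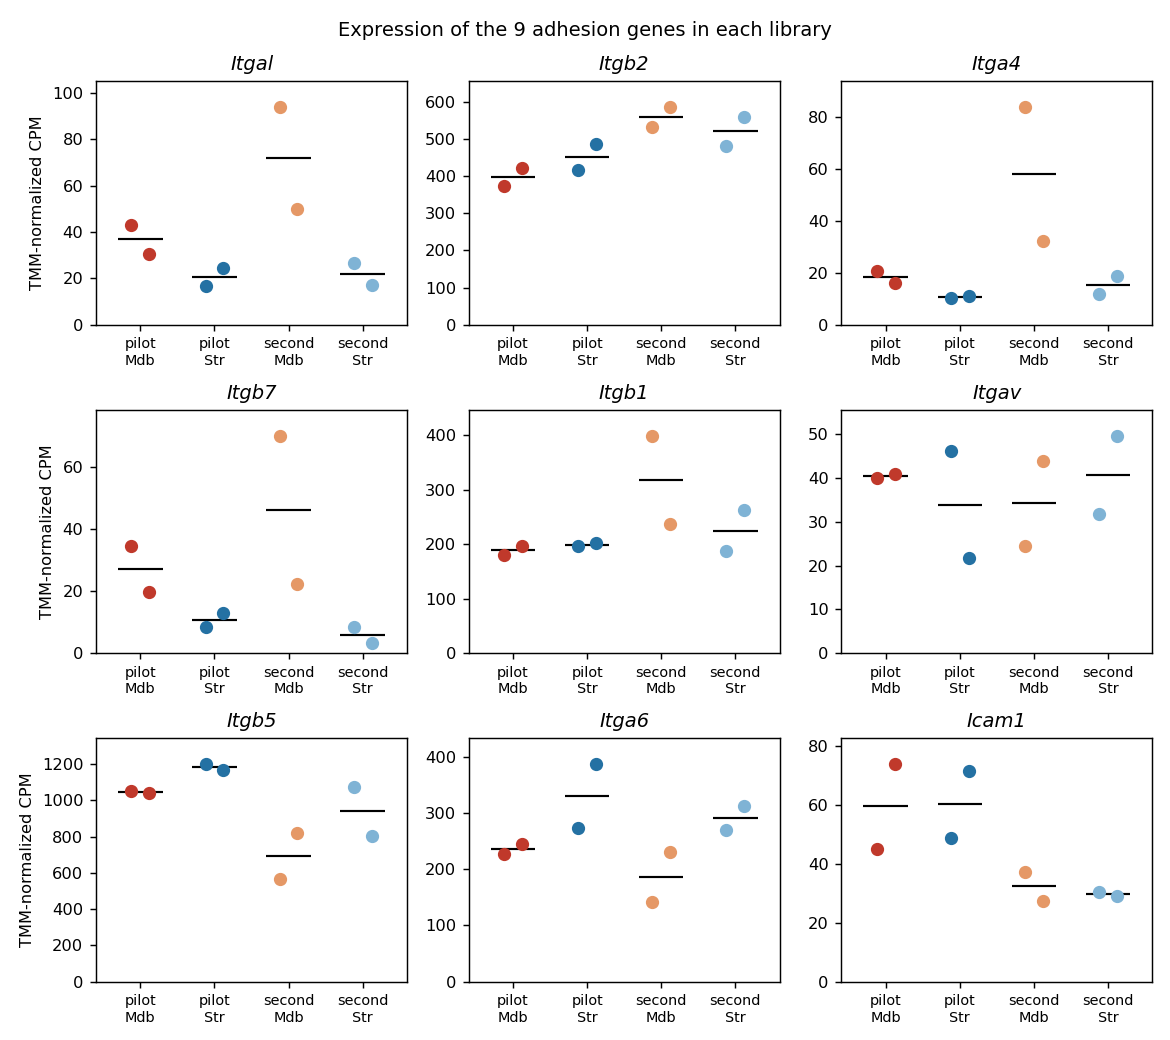
TMM-normalized CPM of each of the 9 genes (vertical axes, each from 0) in the 8 libraries, grouped by cohort and region. Points are libraries and lines are the mean of the 2 libraries of a group. Itgal, Itga4 and Itgb7 lie higher in the midbrain of both cohorts, with second midbrain replicate 1 highest at 93.8, 83.9 and 70.0 CPM, and Itga6 lies lower.

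Itga6, the laminin-binding alpha subunit, was the only one of the 9 genes whose midbrain libraries lay below the striatum libraries in both cohorts. It was at 227 and 246 CPM in the pilot midbrain, against 273 and 387 CPM in the pilot striatum. The second midbrain had 142 and 230 CPM, against 271 and 312 CPM in the second striatum. The limma log2 fold change was -0.50 (SE 0.216, adjusted p = 0.452) in the pilot and -0.69 (SE 0.294, adjusted p = 0.445) in the second cohort, neither of which passed the cohort threshold. The joint value was -0.55 (SE 0.178, 95% confidence interval -0.94 to -0.17, adjusted p = 0.174). The estimate stayed below 0 in every alternative and in every fit without 1 library.

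These 4 genes, Itgal, Itga4, Itgb7 and Itga6, were the ones without overlap in the same direction in both cohorts. The libraries of the regions did not overlap for 42.8% of all genes tested in the pilot and 41.7% of those tested in the second cohort. They did so in the same direction in both cohorts for 15.1% of genes in the joint fit, 9.01% with the midbrain above and 6.06% with it below. The exact permutation test within cohorts gave p = 0.0556 for each of the 4 genes, two-sided, which is the smallest value that the 36 labelings of 2 against 2 libraries in 2 cohorts allow. After thinning to the smallest library Itgal overlapped, and with the unassigned libraries added by title all 4 did.

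Itgb2, the common beta chain of LFA-1 and of the CD11b receptor, was at 374 and 423 CPM in the pilot midbrain and at 415 and 487 CPM in the pilot striatum. It was at 532 and 585 CPM in the second midbrain and at 481 and 559 CPM in the second striatum. The groups overlapped in each cohort, and the joint log2 fold change was -0.04 (SE 0.131, 95% confidence interval -0.32 to 0.25, adjusted p = 0.922 in limma). The upper bound of Itgb2 lies below the lower bound of Itgal, its partner in LFA-1.

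Itgb1, the beta chain shared by many matrix receptors, was at 181 and 197 CPM in the pilot midbrain and at 197 and 202 CPM in the pilot striatum. Its second-cohort levels were 400 and 237 CPM in the midbrain and 187 and 262 CPM in the striatum, where the single high library was midbrain replicate 1. The joint log2 fold change was 0.20 (SE 0.197, 95% confidence interval -0.22 to 0.63, adjusted p = 0.678 in limma), and its sign turned when either midbrain replicate 1 or striatum replicate 1 of the second cohort was left out.

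Itgb5, which pairs with Itgav, was at 1050 and 1041 CPM in the pilot midbrain and at 1199 and 1166 CPM in the pilot striatum. In the second cohort the libraries overlapped, at 567 and 820 CPM in the midbrain and at 1073 and 805 CPM in the striatum. The joint log2 fold change was -0.31 (SE 0.150, 95% confidence interval -0.64 to 0.01), with an adjusted p of 0.366 in limma. The sign was negative in every alternative tried.

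Itgav, the alpha chain of the vitronectin receptors, was at 39.9 and 40.9 CPM in the pilot midbrain and at 46.1 and 21.7 CPM in the pilot striatum. It was at 24.5 and 43.9 CPM in the second midbrain and at 31.9 and 49.7 CPM in the second striatum. The regions overlapped in both cohorts, and the joint log2 fold change was 0.21 (SE 0.286, 95% confidence interval -0.41 to 0.84, adjusted p = 0.776 in limma). Its sign differed between the pilot (0.37) and the second cohort (-0.16), so no direction is given.

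Icam1, the ligand of LFA-1 and of the CD11b receptor and a target of inflammatory signalling, did not differ detectably between regions. It was at 45.2 and 74.0 CPM in the pilot midbrain, at 49.0 and 71.6 CPM in the pilot striatum, at 37.4 and 27.5 CPM in the second midbrain and at 30.5 and 29.1 CPM in the second striatum. The joint log2 fold change was -0.01 (SE 0.222, 95% confidence interval -0.50 to 0.47, adjusted p = 0.984 in limma). All 4 assigned second-cohort libraries lay below all pilot libraries, with 1 of the 2 unassigned ones, at 45.9 CPM, about level with the lowest pilot library, and the second cohort over the pilot gave a log2 change of -0.89 (SE 0.235, adjusted p = 0.0364 in limma), the only one of the 9 genes called between cohorts. Of all genes, 10.5% were called between cohorts, 4.71% higher and 5.82% lower in the second. The call was lost after all libraries were thinned to the smallest (log2 change -0.78, adjusted p = 0.134) and in 6 of the 8 fits that left out 1 library (adjusted p up to 0.120).

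Cohort differences of the other 8 genes did not pass the threshold. Itga4 had a log2 change of 1.18 (adjusted p = 0.0569), Itgal 0.71 (0.109), Itgb2 0.35 (0.108) and Itgb1 0.42 (0.178) towards the second cohort, and Itgb5 had -0.48 (0.0631), all by limma. The estimated regional fold was higher in the second cohort than in the pilot for Itgal, Itga4 and Itgb7, but the test of that difference found none of the 9 genes, with adjusted p from 0.861 to 0.967. In limma, 0 of 14053 genes passed it at the adjusted threshold (0%) and 5.49% did at an unadjusted p under 0.05, none of them among the 9.

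**Figure D2:**
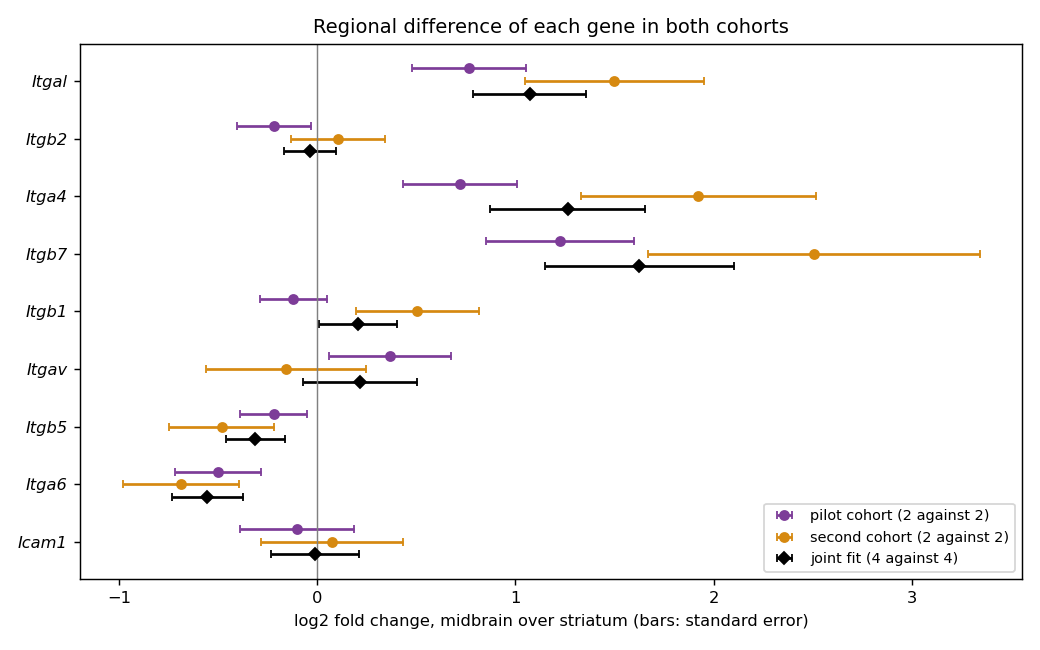
Log2 fold change, midbrain over striatum, of the 9 genes (horizontal axis, bars are standard errors) in the pilot, the second cohort and the joint limma fit. The joint values run from -0.55 for Itga6 to 1.63 for Itgb7, and those of Itgal, Itga4 and Itgb7 lie right of 0 in all 3 fits.

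Because integrins act as pairs, counts of an alpha and a beta gene were also divided by each other within each library, which takes out scaling between libraries. These ratios were chosen after the values had been seen, and their own size depends on transcript length and read position, so only differences between libraries were compared. Itgal stood at 11.5% and 7.24% of the Itgb2 counts in the pilot midbrain and at 4.01% and 5.01% in the pilot striatum. The shares were 17.7% and 8.54% in the second midbrain and 5.51% and 3.07% in the second striatum. The midbrain ratio was above the striatum ratio in both cohorts, with a log2 difference of 1.28 (2.43-fold) and an exact permutation p of 0.0556.

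The Itga4 to Itgb1 ratio was 11.4% and 8.23% in the pilot midbrain, 5.27% and 5.43% in the pilot striatum, 21.0% and 13.6% in the second midbrain and 6.38% and 7.19% in the second striatum. It too was higher in the midbrain in both cohorts, by 1.07 on the log2 scale (exact permutation p = 0.0556). The Itga6 to Itgb1 ratio was lower in the midbrain, with a log2 difference of -0.77 (exact permutation p = 0.0556), and the lowest library was second midbrain replicate 1 at 35.4%. Itgam to Itgb2 had a log2 difference of -0.37 (exact permutation p = 0.0556), Itgax to Itgb2 0.70 (p = 0.111), Itgb7 to Itga4 0.75 (p = 0.111) and Itgav to Itgb5 0.34 (p = 0.444). These are 7 ratios with unadjusted p-values, and none could pass 0.05 in this design. The Itgb7 to Itga4 ratio was lowest in second striatum replicate 3, at 18.2%, where Itgb7 held 2 counts, below the floor. Its difference ran from 0.33 to 1.17 without 1 library and was 0.43 when thinned to the smallest library. Thinned, the Itgax to Itgb2 difference was 0.39.

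**Figure D3:**
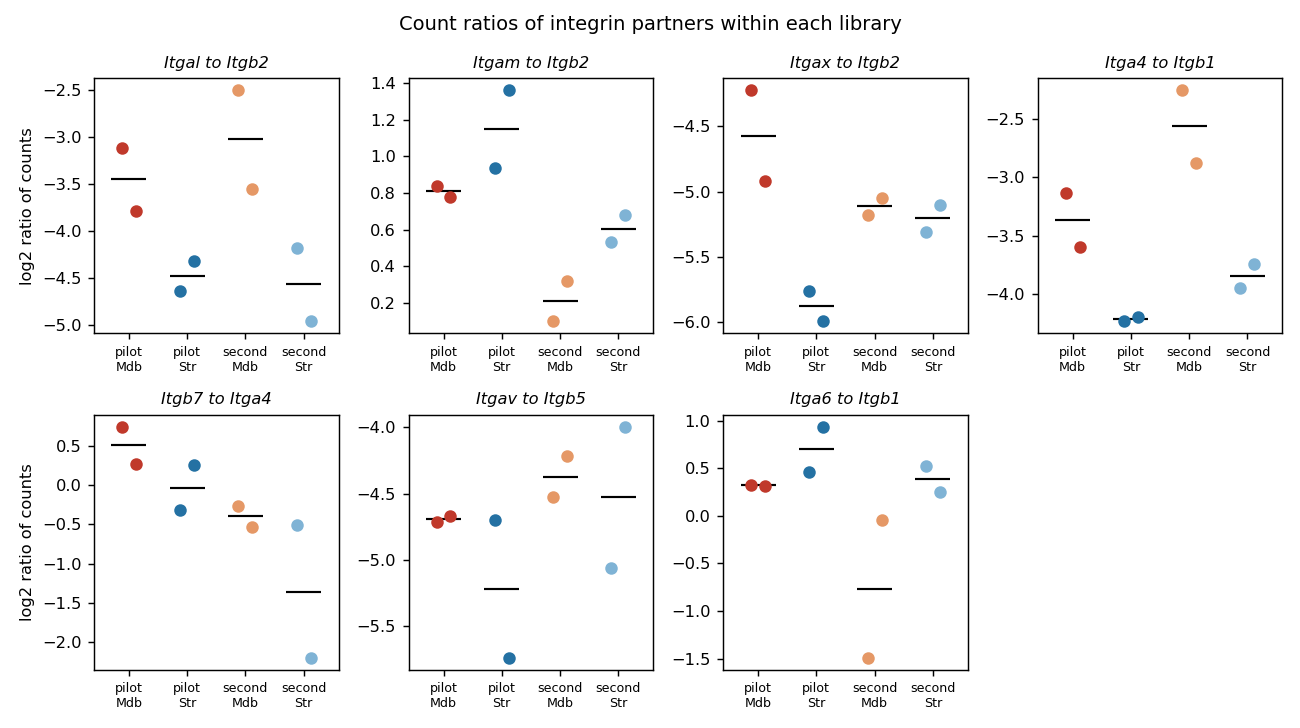
Log2 ratio of counts of paired integrin genes (vertical axes, each with its own range) in the 8 libraries by cohort and region, with lines at group means. Itgal to Itgb2 and Itga4 to Itgb1 lie higher in the midbrain of both cohorts, by 1.28 and 1.07 on average, and Itga6 to Itgb1 lies lower, by 0.77 on average.

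The genes also varied together across the 8 libraries. With each cohort centred on its mean, Itgal and Itgb7 had a Pearson r of 0.997, Itgal and Itga4 of 0.890 and Itga4 and Itgb7 of 0.887. Itga6 ran the other way, with r = -0.830 against Itgal, and Itgb5 did so against Itga4 (r = -0.947) and Itgb1 (r = -0.922). Itgb2 varied little with Itgal, its partner in LFA-1 (r = -0.116), with Itga4 (r = 0.008) or with Itgb7 (r = -0.148). These values describe 8 libraries that share depth and scaling, and regional differences are part of them. Among 8795 genes with a mean of at least 10 CPM, the genes most like Itgal were Itgb7, Rhbdf2 (0.992) and Rpl28 (0.990), and those most like Itgb7 were Itgal, Chil3 (0.995), a monocyte marker used below, and Crip1 (0.992). The closest to Itga4 were Thbs1 (0.993), which encodes a matrix protein, Rps28 (0.993) and Synj1 (0.987).

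Itga6 was most like Socs6 (0.994), Cd302 (0.989) and Mcfd2 (0.988). Itgb1 was most like Senp6 (0.985), Ly6c1 (0.985) and Gas5 (0.978). For the others, the nearest gene was 4632415L05Rik for Itgb5 (0.991), Stox2 for Itgav (0.992), Tex261 for Itgb2 (0.957) and Nkapd1 for Icam1 (0.913), so the pattern of Icam1 had the least close match.

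Like Itgal, Itga4 and Itgb7, the tested markers of monocytes, of T and natural killer cells and, for most genes, of neutrophils were higher in the midbrain. By joint estimate so were all tested markers of border macrophages, dendritic cells, fibroblasts, oligodendrocytes, pericytes and smooth muscle, and the dissociation genes. Those of B cells were not, and correlations of marker sums with Itgal, Itga4 and Itgb7 were not computed. The summed level of 9 monocyte markers was 254 to 338 CPM in the pilot midbrain, 90.4 to 110 CPM in the pilot striatum, 737 to 2845 CPM in the second midbrain and 135 to 271 CPM in the second striatum. The highest of these was again second midbrain replicate 1. All 9 monocyte markers were higher in the midbrain and 4 were called in the joint fit.

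The 13 markers of T and natural killer cells summed to 275 to 340 CPM in the pilot midbrain and 48.4 to 107 CPM in the pilot striatum, and to 454 to 741 and 29.1 to 157 CPM in the second cohort. Of these, 9 were tested, all 9 were higher in the midbrain and 2 were called. Of the T cell markers, Cd3e, Cd3g and Cd8a were near 0 in both regions, while Cd3d and Cd2 were higher in the second midbrain. Cd3d held 1 to 4 counts in the pilot midbrain, 1 to 5 in the pilot striatum, 8 to 10 in the second midbrain and 0 to 1 in the second striatum. For Cd2 these counts were 12 to 23, 7 to 17, 18 to 32 and 0 to 3. Cd3e held 0 or 1 count in every midbrain library, Cd3g held 0 or 1 in the pilot midbrain and 4 in each second midbrain library, and Cd8a held 1 to 6, while Cd3g was at 0 in both pilot striatum libraries and all 3 were at 0 in both second striatum libraries, where 3 counts correspond to up to 5.14 CPM. The 12 neutrophil markers summed to 1224 to 1587 CPM in the pilot midbrain, 900 to 935 CPM in the pilot striatum, 4352 to 6776 CPM in the second midbrain and 978 to 1054 CPM in the second striatum, with 6 called higher, 11 estimates above 0 and Csf3r below it (-0.26).

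Of 11 border macrophage markers, 10 were tested and 6 were called higher, and Folr2 held 0 or 1 count in every midbrain library and 0 in every striatum library. They summed to 2019 to 2419 CPM in the pilot midbrain, 1008 to 1405 CPM in the pilot striatum, 3225 to 3239 CPM in the second midbrain and 663 to 734 CPM in the second striatum. The 12 microglial markers all had joint log2 fold changes below 0, with 2 called, and 11 of them also had one below 0 in the pilot, where Gpr34 was at 0.28. They had sums of 13534 to 15440 CPM in the pilot midbrain, 19107 to 20163 CPM in the pilot striatum, 14906 to 16785 CPM in the second midbrain and 21254 to 26070 CPM in the second striatum. The part of these cells' RNA in the differences of Itgal, Itga4, Itgb7 and Itga6 was not tested. With second midbrain replicate 1 and second striatum replicate 3 both left out, a choice made after seeing the data, the joint log2 fold change was 0.81 for Itgal, 0.91 for Itga4, 1.25 for Itgb7 and -0.42 for Itga6, none called by limma. 

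The 10 dissociation genes, which respond to tissue handling, summed to 19015 to 21475 CPM in the pilot midbrain, 13571 to 20623 CPM in the pilot striatum, 19264 to 22743 CPM in the second midbrain and 10785 to 10952 CPM in the second striatum. All 10 had joint estimates above 0 and 2 were called, and 6 passed the threshold in the second cohort. The sums overlapped between regions in the pilot and not in the second cohort, and the part of handling in the differences of the 9 genes was not tested. None of 5 tested dendritic cell markers was called, but all 5 had joint estimates above 0 (median 1.62), 4 of them at an unadjusted p under 0.05. None of 4 tested fibroblast markers was called either, and all 4 had estimates above 0 at an unadjusted p under 0.05 (median 1.67). The 2 tested B cell markers had estimates below 0 and were not called. No marker was called of 8 endothelial, 7 astrocyte, 5 oligodendrocyte and 6 pericyte and smooth muscle genes tested, with medians of -0.09, -0.05, 0.18 and 0.68. All 6 pericyte and smooth muscle genes had estimates above 0, 2 of them at an unadjusted limma p under 0.05. All 5 oligodendrocyte estimates were above 0 without passing that p, and 1 astrocyte gene was lower at it.

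**Figure D4:**
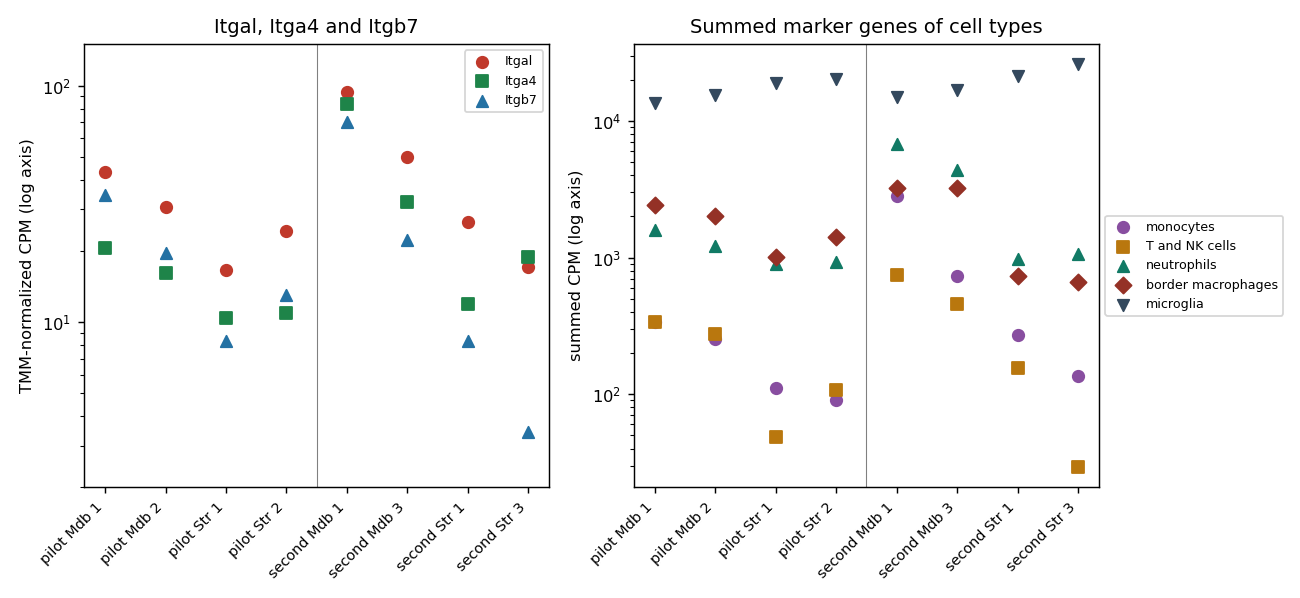
Left, TMM-normalized CPM of Itgal, Itga4 and Itgb7 in each of the 8 libraries, and right, the summed CPM of marker genes of 5 cell types in the same libraries, both on log axes. Monocyte markers peak at 2845 CPM in second midbrain replicate 1, the library with the highest Itgal, Itga4 and Itgb7, and microglial markers are lowest in the midbrain of each cohort.

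The other adhesion genes put the 9 in context. Of 73 genes listed as further integrin subunits, ligands, selectins and integrin activators, 60 were tested and 1 was called in the joint fit. None of 14 tested integrin subunits was called (median log2 fold change 0.31), nor any of 7 immunoglobulin-like ligands (-0.09), 4 selectins and selectin ligands (0.90) or 24 activators and adaptors (0.08). Of 11 matrix and secreted ligands, 1 was called and all 11 had estimates above 0 (median 0.47). At an unadjusted limma p under 0.05, 13 of the 60 were higher and 8 lower, where 9.35% and 5.21% of all genes were, and the 1 called gene stands beside 1.06% of all genes.

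The called gene was Spp1, osteopontin, a secreted ligand of integrins that contain Itgav or Itga4. It was at 17.1 and 23.0 CPM in the pilot midbrain, 6.62 and 3.73 CPM in the pilot striatum, 71.6 and 39.5 CPM in the second midbrain and 13.4 and 10.3 CPM in the second striatum. The groups did not overlap in either cohort, and the joint log2 fold change was 2.06 (SE 0.334, adjusted p = 0.0209 in limma). Without 1 library the adjusted limma p of Spp1 was 0.0835 (pilot midbrain replicate 1), 0.0550 (pilot striatum replicate 1), 0.131 (second striatum replicate 1) or 0.0803 (second striatum replicate 3), with the log2 fold change between 1.86 and 2.21 over all 8 such fits. Cd44, a receptor for hyaluronan, passed the threshold in both cohorts (log2 fold change 1.10 and 2.13), with a joint value of 1.62 (adjusted p = 0.122 in limma), and joint calls in edgeR (adjusted p = 0.0456) and DESeq2 (adjusted p = 0.00127). Fn1, fibronectin, a ligand of Itga4 with Itgb1, passed it in both cohorts too (0.73 and 2.91), with a joint value of 1.48 (adjusted p = 0.247 in limma). The second midbrain libraries lay far apart, at 41.2 and 129.5 CPM for Cd44 and at 69.4 and 375.5 CPM for Fn1. Without 1 library the joint log2 fold change ran from 1.18 to 1.92 for Cd44 and from 0.96 to 1.86 for Fn1.

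Itgam and Itgax are further alpha partners of Itgb2. Itgam, whose protein was used to isolate the cells, was at 669 and 725 CPM in the pilot midbrain and 795 and 1250 CPM in the pilot striatum, and at 570 and 730 CPM in the second midbrain and 695 and 896 CPM in the second striatum. Its joint log2 fold change was -0.40 (SE 0.167, adjusted p = 0.292 in limma). Itgax passed the threshold in the pilot (log2 fold change 1.08) and not in the second cohort (0.29), and the difference between cohorts had an adjusted p of 0.865 in limma. The joint value of Itgax was 0.83 (adjusted p = 0.179).

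**Figure D5:**
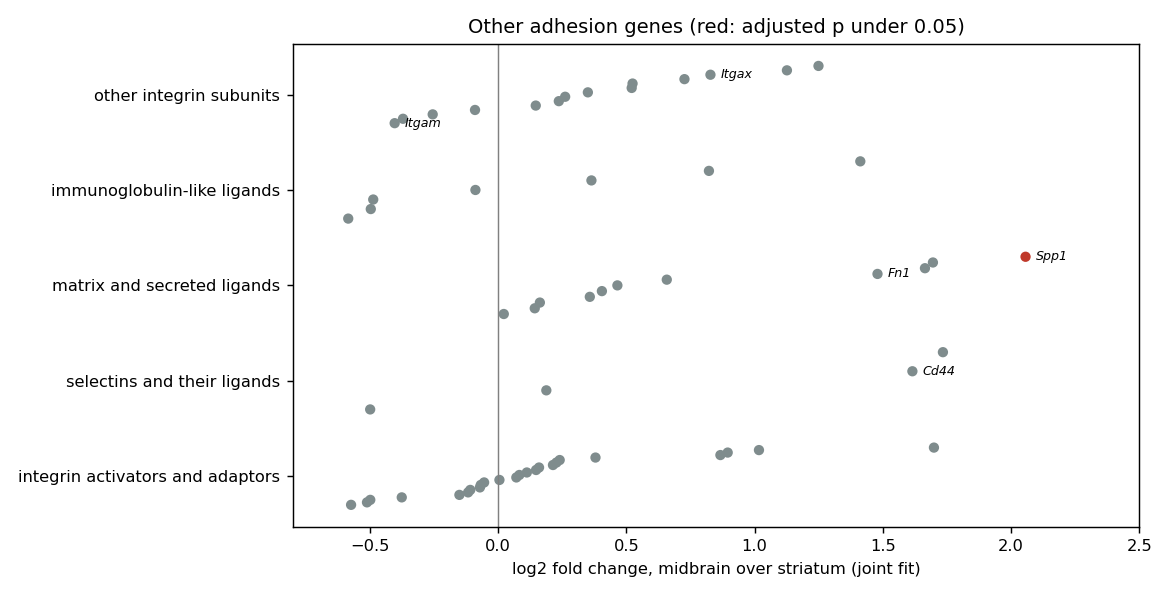
Joint log2 fold change, midbrain over striatum, of 60 tested adhesion genes outside the 9, in 5 groups, with the genes named in the text labelled. Spp1 at 2.06 is the only gene with an adjusted p under 0.05 (red), and all 11 matrix and secreted ligands lie right of 0.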

How the data were processed

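RNA was measured in 10 libraries, 8 of which were assigned to a region and cohort from GEO's labels. According to the labels and methods, the authors aligned reads to GRCm38 with STAR 2.5.3a and counted them on Gencode M17 with featureCounts 1.6.0, without strand, and the deposited values are raw counts per gene. Symbols were matched to 53620 of 53715 identifiers. Counts were scaled by TMM (edgeR 4.0.16) and fitted with voom in limma 3.58.1 (R 4.3.3), as in the paper's methods, within each cohort and jointly with cohort as a covariate. A gene was dropped where over 50% of a fit's libraries held under 6 counts, and log2 CPM used a prior count of 2. DESeq2 1.42.0 and the edgeR quasi-likelihood test were alternatives. Ratios added 0.5 to counts. The fits were tested on simulated data.

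The genes and all lists were chosen with earlier results of these data known. Text names all 9 genes, their overlapping genes, 3 most alike genes each (Pearson r, cohort-centred), Itgam, Itgax and adhesion genes called jointly or in both cohorts. The floor of 3 counts is 0.35 to 5.14 CPM and covers counting error only. The numbers in the titles did not pair libraries (correlation of deviations -0.0339 in the pilot and 0.0782 in the second cohort), and in the second cohort they disagree with the numbers in the file names, so the block was an alternative. A block by file name number was added after seeing the data. Depth, weighting, left-out libraries and placing the 2 unassigned libraries were further alternatives.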

Additional observations from a re-analysis of the deposited data

Results flagged for a closer look

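The 2 libraries of the second cohort whose labels name both regions entered no comparison, and all 9 genes were detected in them above the limit that a count of 0 allows. Values are TMM-normalized CPM scaled over 10 libraries, first for the library titled Mdb 2 (1584013 counts) and then for that titled Str 2 (5194739 counts), and they were not used to settle a region. Itgal was at 40.1 and 52.7 CPM, where the assigned second-cohort striatum libraries spanned 17.5 to 26.4 and the midbrain ones 50.6 to 94.3. Itgb2 was at 521.5 and 522.2 CPM. Itga4 was at 19.1 and 29.1 CPM, against 11.95 to 19.23 in the assigned striatum and 32.55 to 84.37 in the assigned midbrain. Itgb7 was at 5.09 and 23.4 CPM, where the assigned striatum libraries spanned 3.496 to 8.33 and the midbrain ones 22.5 to 70.3. Itgb1 was at 306.9 and 240.4 CPM. Itgav was at 80.9 and 45.5 CPM, the first above every assigned library of that cohort (highest 50.7). Itgb5 was at 811.3 and 687.9 CPM. Itga6 was at 363.6 and 195.3 CPM, the first above the assigned striatum range of 270.2 to 318.2 and the second within the midbrain range of 142.4 to 233.0. Icam1 was at 45.9 and 38.8 CPM, both above the highest assigned library of the cohort (37.6).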

How the results depend on the processing

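Itgal, Itga4 and Itgb7 kept a positive joint log2 fold change and Itgb5 and Itga6 a negative one in every alternative run. Of 430 values of the 9 genes 358 kept direction and side of the threshold, mostly as uncalled values, while 29 changed sign, 28 gained a call and 15 lost one. Itgb7 lost its pilot call in 4 of 12 alternatives. Itgal and Itga4 lost their second-cohort calls in 4 and 7 of 15 alternatives. Genes called in the pilot, 1 of 9, became 0 with library size only, 0 when thinned, 0 with quality weights and 4 at p under 0.05, and 0 to 3 without 1 library, where 0.749% to 16.8% of all genes were called in place of 2.64%. In the second cohort, 2 became 1 without the filter, 1 with at least 10 counts in every library (Itgb7 then not tested), 1 when thinned, 4 at p under 0.05, and 0 to 6 without 1 library (0 without striatum replicate 3, 6 without midbrain replicate 3, when 2.92% and 10.1% of all genes were called in place of 3.47%). With the unassigned libraries placed by title the second cohort had 0 called, the joint fit 0 and no gene without overlap in both cohorts (0 in place of 4, otherwise 4 to 5 without 1 library), with an adjusted p of 0.772 for Itgal, Itga4 and Itgb7. Placed by title, 0.996% of all genes were called in the second cohort and 0% jointly. Placed by file name, 1 of the 9 was called jointly (Itga6, log2 fold change -0.65, adjusted p = 0.0426), where 3.185% of all genes were called. The library-size, thinned and weighted pilot fits called 2.86%, 2.47% and 3.05% of all genes. In the second cohort 2.05% were called without the filter, 2.90% with at least 10 counts and 3.32% when thinned. For the counts at p under 0.05 within a cohort no share of all genes is given. The joint count of 0 became 2 in edgeR, 3 in DESeq2 and 2 with quality weights, when 1.69%, 3.87% and 2.93% of all genes were called. It was 0 to 0 without 1 library, where at most 1.73% of all genes and in 2 of these fits 0 genes were called. With the replicate block the joint count became 1 (Itgb7, adjusted p = 0.0405) and that of the second cohort 4 (Itgb7 and Itga6 added). Of all genes, 2.19% were then called jointly and 7.33% in the second cohort. Cd44 was called jointly with this block, and no other named gene changed its call. These title numbers did not pair the libraries, however, and combine different file name numbers in the second cohort. Blocking by file name number gave 0 jointly (adjusted p = 0.252 for Itgal, 0.230 for Itga4, 0.167 for Itgb7). With the unassigned libraries placed by file name as well it gave 3 in the second cohort and 3 jointly (Itgal, Itga4 and Itgb7, adjusted p = 0.0382, 0.0458 and 0.0435), with 5 other adhesion genes. This fit called 4.57% of all genes in the second cohort and 2.48% jointly. Of the 3 pairs of the second cohort so formed, each held a library that correlated better with another number than with its own (correlations of deviations within pairs 0.013, -0.247 and -0.096). Other adhesion genes called, 1, became 3 (edgeR), 6 (DESeq2), 3 (no filter), 0 (at least 10 counts), 4 (replicate block), 2 (thinned), 4 (quality weights), 0 (placed by title, Spp1 then at 0.67 with adjusted p = 0.906) and 7 (placed by file name), and 0 to 4 without 1 library. The joint share of all genes was 1.08% without the filter, 0.81% with at least 10 counts and 1.885% when thinned. Joint shares of the other settings are given above. Between cohorts, 1 of the 9 became 2 (DESeq2), 2 (library size only), 3 (no filter), 3 (at least 10 counts), 0 (thinned), 4 (quality weights) and 3 (placed by file name), and 0 to 5 without 1 library. The share of all genes called between cohorts was 10.5% in the main fit. It is not given for these alternatives, so their counts cannot be set against it. The median joint log2 fold change ranged from -0.02 to 0.26 without 1 library. Signs turned for Itgb2, Itgb1, Itgav and Icam1 and for no other of the 9 genes. In the second cohort these were Itgb2 thinned (-0.044), Itgav thinned (0.086) and Icam1 placed by title (-0.0028) and by file name with its block (-0.054). In the joint fit they were Itgb2 with at least 10 counts (0.014) and thinned (0.042), Itgav thinned (-0.019) and placed by file name without (-0.010) and with its block (-0.088), and Icam1 in edgeR (0.039), DESeq2 (0.047), with at least 10 counts (0.031), the replicate block (0.034) and quality weights (0.10). Without 1 library, pilot values ran from -0.20 to 0.83 for Itgav and -0.44 to 0.27 for Icam1, and second-cohort values from -0.033 to 0.21 for Itgb2, -0.65 to 0.30 for Itgav and -0.12 to 0.34 for Icam1. Joint values ran from -0.15 to 0.043 for Itgb2, -0.019 to 0.29 for Itgb1, -0.16 to 0.43 for Itgav and -0.20 to 0.22 for Icam1. The cause of these changes was not tested. With 2 libraries a group, and 10 or 11 counts of Itgal and Itga4 in the shallowest, depth limits the second striatum.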
